A study of Mus musculus with 6 samples.

Results

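The genes described here are 10 components of the major histocompatibility complex (MHC) class I antigen presentation pathway, measured by RNA sequencing of islets of FXR+/+ and FXR-/- mice. They were chosen by name, as *H2-K1*, *H2-D1*, *B2m*, *Tap1*, *Tap2*, *Tapbp*, *Nlrc5*, *Psmb8*, *Psmb9* and *Psmb10*, with earlier results of these data known, and they are 10 of the 19342 genes in the count table. All 10 passed the filter on low counts and were tested among 14619 genes. FXR is the nuclear receptor for bile acids, encoded by *Nr1h4*, and the study used RNA sequencing to look for genes expressed differently in islets without it. Each genotype had 3 islet libraries, from 1 female (female 1) and 2 males (male 1 and male 2). All mice were 3 months old, the knockout mice were on the C57Bl/6 background, and islets were collected after digestion of the pancreas with collagenase P. The FXR-/- group carried the FXR knockout and the FXR+/+ group was wild type, with no further allele or treatment named in the labels. The construct of the knockout allele, and how many animals gave each library, are not given in the sources used here. The p-values therefore measure the spread between these libraries, part of which may be technical.

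Class I molecules display peptides from inside the cell to CD8+ T cells, and in islets they are best known for the role they play when T cells attack beta cells in autoimmune diabetes. Proteins are cut by the proteasome, the peptides are carried into the endoplasmic reticulum by the TAP transporter, and they are loaded with the help of tapasin onto a heavy chain bound to beta-2 microglobulin. Interferons raise the transcription of nearly every step, and they exchange the catalytic subunits of the constitutive proteasome for those of the immunoproteasome. These are bulk libraries, so fewer cells of a type and less RNA per cell cannot be told apart.

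The libraries held 20629306 to 30139235 counts in genes. In FXR+/+ libraries *Nr1h4* had 333, 274 and 386 counts, and in FXR-/- libraries it had 140, 145 and 138, so that 5.67 to 7.63 CPM remained beside 12.2 to 14.2 CPM in FXR+/+ (counts scaled to a library of 1e6 counts). Its last exon (chr10:89454234-89454948, numbered 1 in the file) had 73, 56 and 81 counts in FXR+/+ and 0 in each FXR-/- library, which fits the labels. The exon next to it (chr10:89456531-89456644) had 1, 2 and 0 counts in FXR+/+ and 11, 13 and 8 in FXR-/- libraries, and that at chr10:89498049-89498417 had 16, 14 and 20 against 13, 12 and 10. With counts fitted in edgeR to terms for sex and genotype, its log2 fold change was -1.07 (SE 0.160, adjusted p = 0.217 by the quasi-likelihood test of edgeR, adjusted by Benjamini-Hochberg, and 0.0441 with the library number as a replicate block). The pancreatic endocrine markers were abundant in all 6 libraries, with the 9 beta cell markers summing to 186872 to 271733 CPM. The libraries also held exocrine RNA, with the 10 acinar markers summing to 36534 to 111299 CPM in FXR+/+ and 51814 to 127142 CPM in FXR-/- libraries. Among immune cell markers, those of macrophages summed to 114 to 187 CPM, the 6 pan-leukocyte markers to 25.7 to 76.0 CPM, those of B cells to 14.5 to 33.0 CPM and those of T cells to 1.42 to 4.46 CPM.

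Of the 10 genes, 7 lie on mouse chromosome 17 in the MHC region, where *Psmb9*, *Tap1*, *Psmb8* and *Tap2* are neighbours, *Nlrc5* and *Psmb10* lie on chromosome 8 and *B2m* on chromosome 2. Promoter sequences were taken from RefSeq (GRCm38.p6), which had entries for 8 of the 10 genes (all but *Tap2* and *Nlrc5*). Class I promoters are known for a compact upstream module that binds NF-kB, interferon regulatory factors (IRF), CREB-type factors and NF-Y, the last ones as part of the complex that recruits NLRC5. The 250 bases before the start of *H2-K1* (chr17:34000348-34000597, minus strand), *H2-D1* (chr17:35262844-35263093, plus strand) and *B2m* (chr2:122147437-122147686, plus strand), and the 225 bases between the starts of *Psmb9* and *Tap1* (chr17:34187331-34187555, read on the strand of *Tap1*), are shown because the heavy chain genes and *B2m* all hold these elements, and because *Psmb9* and *Tap1* are read in opposite directions from 1 short stretch. Capitals mark every match, on either strand, to the IRF core AANNGAAA, the CREB site TGACG, the NF-Y box CCAAT, the nuclear receptor site AGGTCA and the NF-kB motif.
H2-K1: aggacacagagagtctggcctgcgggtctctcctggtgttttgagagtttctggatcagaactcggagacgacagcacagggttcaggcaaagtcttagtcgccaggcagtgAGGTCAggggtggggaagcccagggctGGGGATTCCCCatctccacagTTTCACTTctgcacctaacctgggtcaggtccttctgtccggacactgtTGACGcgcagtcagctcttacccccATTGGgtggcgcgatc
H2-D1: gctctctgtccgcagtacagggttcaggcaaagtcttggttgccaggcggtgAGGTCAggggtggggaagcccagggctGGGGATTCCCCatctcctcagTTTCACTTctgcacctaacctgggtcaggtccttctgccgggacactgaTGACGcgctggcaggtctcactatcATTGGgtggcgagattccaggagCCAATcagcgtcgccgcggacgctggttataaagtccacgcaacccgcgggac
B2m: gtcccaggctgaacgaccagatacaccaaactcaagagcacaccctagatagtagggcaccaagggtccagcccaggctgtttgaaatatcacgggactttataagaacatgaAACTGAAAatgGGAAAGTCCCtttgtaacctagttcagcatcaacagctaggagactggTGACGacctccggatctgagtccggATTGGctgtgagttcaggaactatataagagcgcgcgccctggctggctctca
Psmb9-Tap1: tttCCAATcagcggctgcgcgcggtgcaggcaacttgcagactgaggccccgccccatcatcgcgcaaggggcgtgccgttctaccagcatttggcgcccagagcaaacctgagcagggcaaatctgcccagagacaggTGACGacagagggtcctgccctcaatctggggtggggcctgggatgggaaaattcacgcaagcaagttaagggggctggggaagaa

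The windows of *H2-K1*, *H2-D1* and *B2m* each held at least 1 match to the NF-kB motif, the IRF core, TGACG and CCAAT. In *H2-D1* they began 171, 150, 101 and 76 bases before the start, and in *H2-K1* 111, 90, 41 and 16 bases before it, the same spacing with a RefSeq start that lies closer. The windows of the 2 heavy chain genes were 88.9% identical over 190 aligned bases. In *B2m* the IRF core (137 bases before the start) lay before the NF-kB motif (126 bases), followed by TGACG (78 bases) and CCAAT (53 bases). The stretch between *Psmb9* and *Tap1* held 1 TGACG, 86 bases before the start of *Tap1*, and 1 CCAAT at its *Psmb9* end. The window of *Tapbp* held 2 matches to CCAAT, that of *Psmb10* held 1 AGGTCA, and that of *Psmb8* held none of these letters. AGGTCA, a site to which many nuclear receptors bind, was also present once in *H2-K1* and once in *H2-D1*, while its inverted repeat with 1 base between the copies, the element bound by FXR with its partner RXR, was in none of the 8 windows. Among 32851 RefSeq promoter windows of 250 bases, 21.3% held the IRF core, 17.8% TGACG, 33.8% CCAAT, 14.0% AGGTCA, 3.90% the NF-kB motif and 0.00609% the inverted repeat. The motifs were chosen after the member sequences were seen, so these shares do not show whether the matches in the members are unusual. The matches are letters in a window, not measured binding. Only the exact inverted repeat was searched, and 2 of the 32851 windows held it. Its absence from 8 windows therefore does not show whether FXR can bind there. Overlapping matches were counted once per position, which gave the NF-kB motif 2 overlapping matches in each heavy chain window.

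None of the 10 genes was called between the genotypes, a call being an adjusted p under 0.05 over all genes tested. Their log2 fold changes (FXR-/- over FXR+/+) ran from -0.17 to 0.39, with 6 higher and 4 lower, and their median was 0.13 beside 0.01 over all genes tested. The median was 0.03 without the FXR-/- male 1 library, and without the FXR-/- male 2 library all 10 were higher. With a sex term in edgeR, 0 of 14619 genes had an adjusted p under 0.05 (background 0%), 1511 had an unadjusted p under 0.05, and with the number as a replicate block 23 genes were called (0.157%), none of them among the 10. DESeq2 called 158 genes and again none of the 10 (lowest adjusted p = 0.341). An unadjusted p under 0.05 with a higher level in FXR-/- was found for 1 of the 10 genes (*B2m*), against 6.18% of all genes. In 0 of the 10 genes did every FXR-/- library lie above every FXR+/+ library, against 8.02% of all genes, and 0 of the 10 had the reverse order, against 7.37%.

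**Figure D1:**
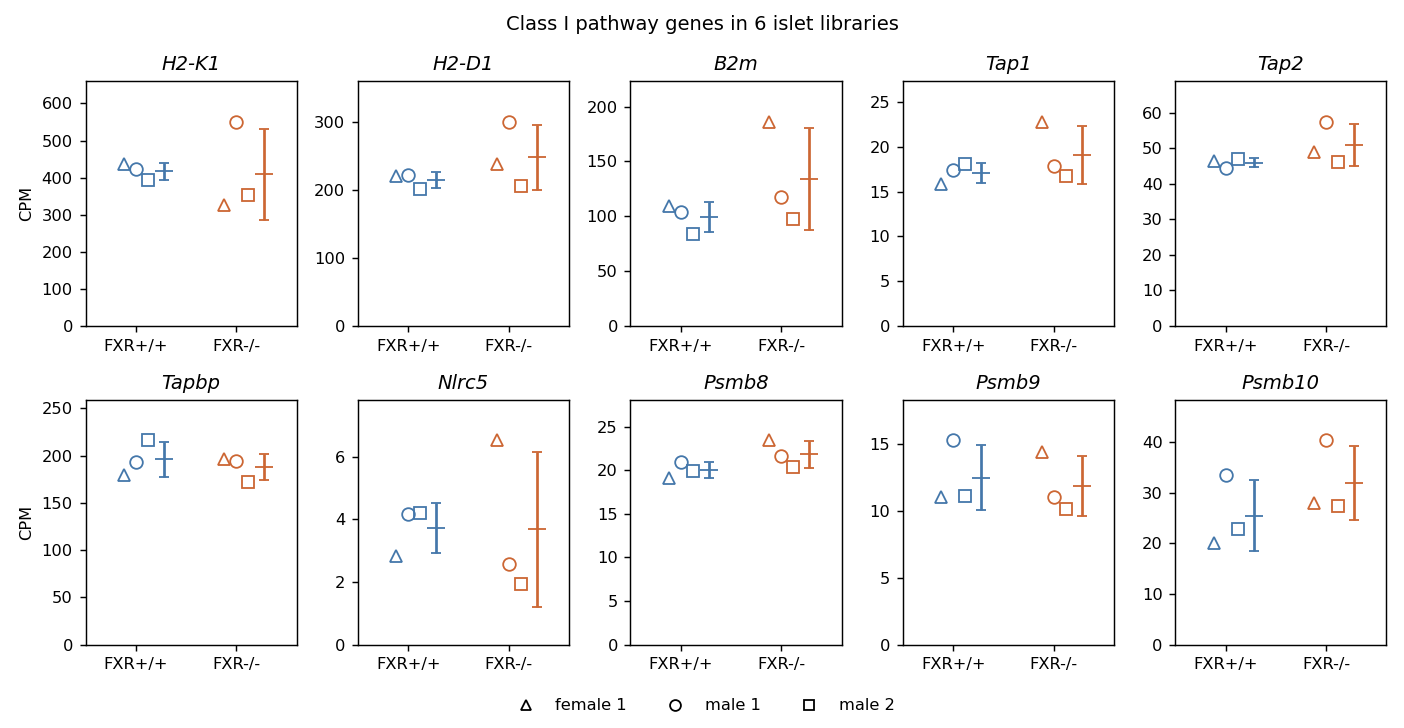
CPM (vertical axes, from 0) of the 10 class I genes in each FXR+/+ and FXR-/- library; triangles are female 1, circles male 1 and squares male 2, and bars show the mean and SD of 3 libraries. The groups overlap for every gene, and the FXR-/- female 1 library stands highest for *B2m*, *Tap1*, *Nlrc5* and *Psmb8* and lowest for *H2-K1*.

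The class I genes differed far more from each other than between the genotypes. Levels were compared per transcript length, as CPM per kilobase of the principal transcript. In FXR+/+ islets *H2-K1* stood at 258 ± 14.1 CPM per kb (SD, n = 3), followed by *B2m* at 115 ± 16.1 and *H2-D1* at 102 ± 5.38, whose ranges overlapped. *Tapbp* followed at 67.8 ± 6.40 CPM per kb. The peptide supply genes were lower, with *Psmb10* at 19.5 ± 5.35, *Tap2* at 13.4 ± 0.371, *Psmb8* at 12.3 ± 0.565, *Psmb9* at 9.22 ± 1.80 and *Tap1* at 5.80 ± 0.385 CPM per kb. *Nlrc5*, the transactivator, was lowest at 0.492 ± 0.104 CPM per kb. Apart from *B2m* and *H2-D1*, no neighbours in this order overlapped over the 3 FXR+/+ libraries. The order rests on all counts of a gene, and the share of them in listed exons differed. It was 3.39% for *Psmb10*, 7.23% for *Psmb8* and 12.4% for *Psmb9*, but 38.4% for *Tap1* and 40.9% for *Tapbp*. *Psmb10* had 135 exon counts over 1311 bases and *Tap1* had 996 over 2953 bases, the reverse of their order above. The order is therefore not settled by these counts. The constitutive subunits that the immunoproteasome subunits replace were higher, with *Psmb5* at 52.2 ± 2.11, *Psmb6* at 89.4 ± 6.69 and *Psmb7* at 55.4 ± 0.414 CPM per kb.

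**Figure D2:**
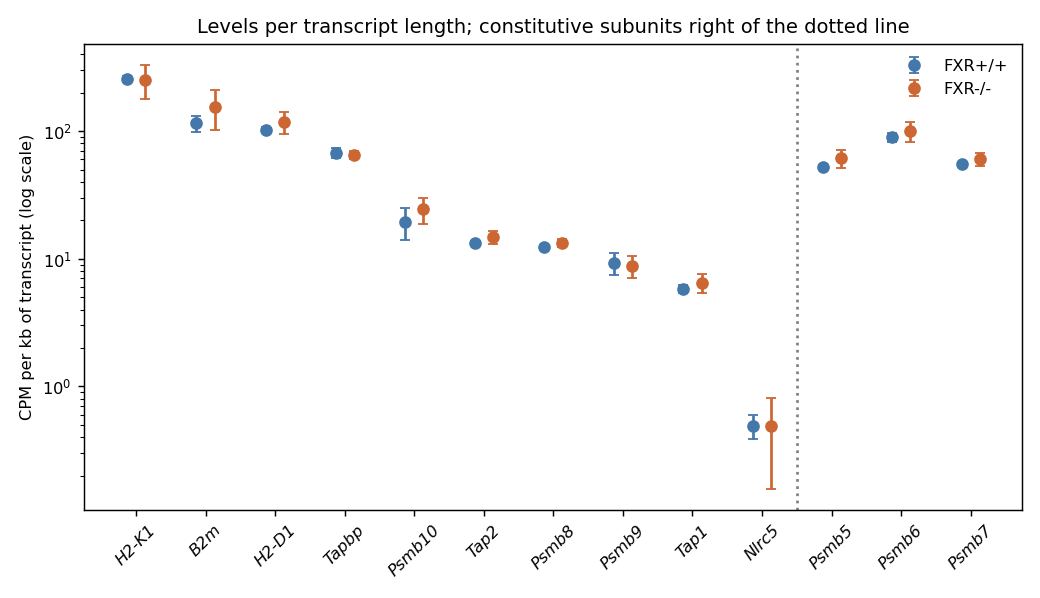
Mean level of each class I gene, and of the 3 constitutive proteasome subunits, in CPM per kb of transcript (vertical axis, log scale) in FXR+/+ and FXR-/- islets; error bars are the SD of 3 libraries. From *H2-K1* at 258 to *Nlrc5* at 0.492 CPM per kb in FXR+/+ islets, the order spans more than the difference between genotypes of any single gene. Levels use all counts of a gene, and exon counts would change part of the order.

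*H2-K1* (chr17:33996017-34000347) and *H2-D1* (chr17:35262730-35267499) encode the K and D heavy chains, the classical class I molecules that present peptide. *H2-K1* stood at 438, 422 and 393 CPM in the FXR+/+ female 1, male 1 and male 2 libraries and at 325, 550 and 353 CPM in the FXR-/- libraries in the same order. The FXR-/- libraries held both the highest value (male 1) and the lowest (female 1), and their SD of 123 CPM was larger than the 22.8 CPM of the FXR+/+ group. The log2 fold change of *H2-K1* was -0.04 (SE 0.190, 95% interval -0.49 to 0.40, edgeR adjusted p = 0.941). It turned to 0.15 in males alone and was -0.30 without the FXR-/- male 1 library. A gene of the same region, *H2-Ea-ps*, named here after its values were seen, was counted 1, 1 and 147 times in FXR+/+ and 455, 0 and 153 times in FXR-/- libraries, in the order given above. It is the gene of the class II E alpha chain, named as a pseudogene (ps), and is known not to be transcribed in mice with the C57Bl/6 haplotype. Over 100 counts of it are therefore not what that haplotype would give. The 3 libraries with over 100 counts of it had the lowest *H2-K1* of their genotype, and its relation to the class I values was not tested.

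*H2-D1* stood at 220, 222 and 202 CPM in FXR+/+ and at 239, 300 and 205 CPM in FXR-/- libraries. It was higher in FXR-/- in each of the same-numbered pairs, with male 1 well above the rest and male 2 within the FXR+/+ range. Its log2 fold change was 0.21 (SE 0.143, 95% interval -0.13 to 0.54, edgeR adjusted p = 0.586), and it was 0.02 without the FXR-/- male 1 library. The coding sequences of the 2 heavy chains were 92.3% identical and the sequences 3' of them 91.7%, so reads could be split between them, and the counts of each are uncertain to that extent.

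*B2m* (chr2:122147686-122153083) encodes beta-2 microglobulin, the light chain that every class I heavy chain needs to reach the cell surface. It stood at 110, 104 and 83.4 CPM in FXR+/+ and at 186, 118 and 97.6 CPM in FXR-/- libraries. The FXR-/- female 1 library was the highest of the 6, and the FXR-/- male 2 library lay within the FXR+/+ range. The log2 fold change of 0.39 (SE 0.149, 95% interval 0.04 to 0.74) was the largest of the 10 in this fit, with an unadjusted p = 0.0337 and an edgeR adjusted p = 0.461. Without the FXR-/- female 1 library it was 0.20, below *Psmb10* (0.27) and *H2-D1* (0.25), and by exon counts *Psmb8* (0.46) and *H2-D1* (0.30) exceeded *B2m* (0.26).

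The balance of heavy and light chains was compared within each library, where it does not depend on scaling. The ratio of *H2-K1* to *B2m*, in counts per kb, was 2.12, 2.16 and 2.50 in FXR+/+ libraries, 2.48 and 1.92 in the FXR-/- males and 0.929 in the FXR-/- female. Only the FXR-/- female library lay below 1, and the difference between genotypes was -0.46 on the log2 scale (p = 0.4, two-sided exact permutation test, n = 3 per group). Without the FXR-/- female 1 library it was -0.044. The ratio of *H2-D1* to *H2-K1* was 0.387, 0.405 and 0.395 in FXR+/+ libraries and 0.565, 0.420 and 0.448 in FXR-/- libraries. It was higher in all 3 FXR-/- libraries than in any FXR+/+ library, by 0.26 on the log2 scale, with the smallest p that 3 against 3 allows (p = 0.1, two-sided exact permutation test, 0.6 after Benjamini-Hochberg adjustment over 6 ratios). The difference was 0.13 without the FXR-/- female 1 library, and it rests on counts that these 2 similar genes could share, which was not measured. Among the FXR-/- libraries this ratio followed the order of the *H2-Ea-ps* counts (0.565 at 455, 0.448 at 153 and 0.420 at 0), while the FXR+/+ male 2 library, with 147 of them, had 0.395, between the other FXR+/+ libraries. The part of *H2-Ea-ps* or of MHC type in the ratio was not tested.

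**Figure D3:**
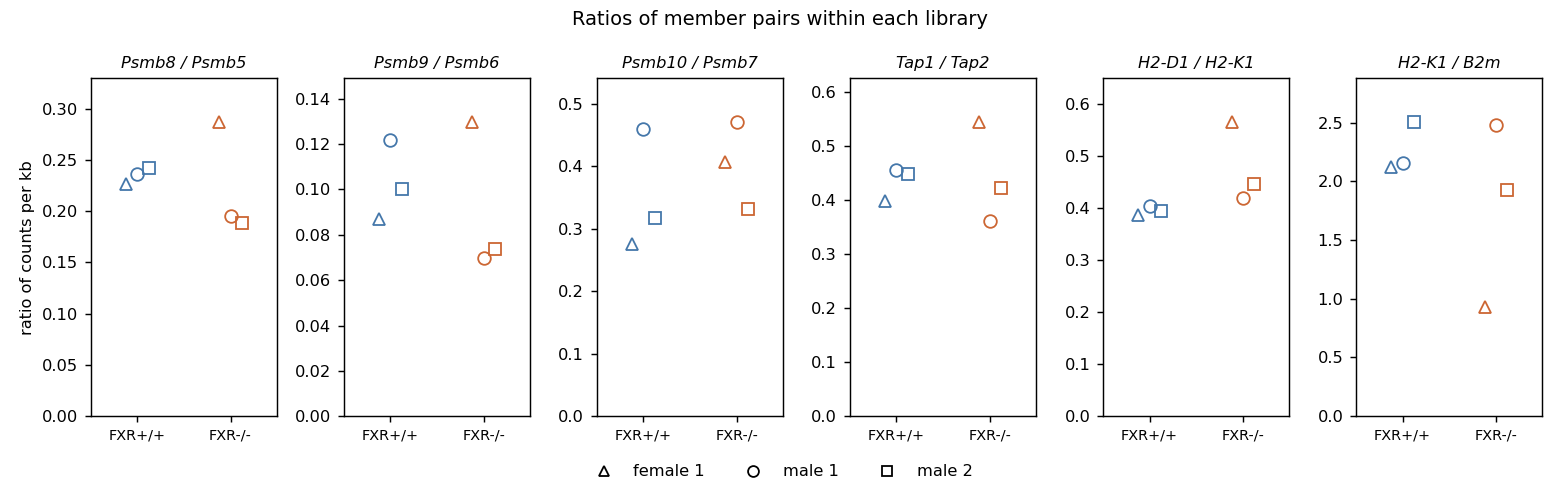
Ratio of counts per kb (vertical axes, from 0) of 6 gene pairs within each library; triangles are female 1, circles male 1 and squares male 2. The ratio of *H2-D1* to *H2-K1* lies between 0.387 and 0.405 in FXR+/+ and between 0.420 and 0.565 in FXR-/- libraries, and the FXR-/- female 1 library stands alone for *H2-K1* to *B2m* at 0.929.

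*Tap1* (chr17:34187553-34197225) and *Tap2* (chr17:34203527-34216321) encode the partner chains of the transporter that moves peptides into the endoplasmic reticulum. *Tap1* stood at 15.9, 17.4 and 18.1 CPM in FXR+/+ and at 22.8, 17.8 and 16.7 CPM in FXR-/- libraries. The FXR-/- female 1 library was highest and both FXR-/- males lay within the FXR+/+ range. The log2 fold change was 0.15 (SE 0.136, 95% interval -0.17 to 0.47, edgeR adjusted p = 0.678), and it turned to -0.04 in males alone. *Tap1* and *Psmb9* overlap on opposite strands in the annotation, as do antisense transcripts with *Tap2*, *Tapbp*, *Psmb8*, *Psmb10* and *Nlrc5*, and the gene *Patl2* with *B2m*. Whether the counting used strand is not given in the sources used here, so reads of such partners may be mixed. *Zbtb22* overlaps *Tapbp* and *Mir7072* overlaps *Nlrc5* on the same strand, where strand would not separate them.

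*Tap2* stood at 46.4, 44.6 and 47.0 CPM in FXR+/+ and at 48.9, 57.4 and 46.2 CPM in FXR-/- libraries. The FXR-/- male 1 library was highest and the other 5 lay between 44.6 and 48.9 CPM. Its log2 fold change was 0.14 (SE 0.101, 95% interval -0.09 to 0.38, edgeR adjusted p = 0.594). Per kb, *Tap1* stood at 0.434 ± 0.0314 of *Tap2* in FXR+/+ and at 0.442 ± 0.0927 in FXR-/- libraries (SD, n = 3; p = 1.0, two-sided exact permutation test).

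*Tapbp* (chr17:33915899-33929292) encodes tapasin, which holds the empty heavy chain at the transporter until a peptide fits. It stood at 179, 194 and 216 CPM in FXR+/+ and at 196, 195 and 172 CPM in FXR-/- libraries. The FXR+/+ male 2 library was highest and the FXR-/- male 2 library lowest. With a log2 fold change of -0.06 (SE 0.102, 95% interval -0.30 to 0.18, edgeR adjusted p = 0.821), its interval reached no further than 0.811-fold to 1.13-fold.

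*Psmb8* (chr17:34197721-34201454), *Psmb9* (chr17:34181987-34187764) and *Psmb10* (chr8:105935735-105938444) encode the catalytic subunits of the immunoproteasome, which take the places of the products of *Psmb5*, *Psmb6* and *Psmb7*. *Psmb8* stood at 19.1, 21.0 and 19.9 CPM in FXR+/+ and at 23.4, 21.6 and 20.4 CPM in FXR-/- libraries. It was higher in FXR-/- in all 3 pairs, and the 2 FXR-/- males differed little from the FXR+/+ libraries. Its log2 fold change was 0.12 (SE 0.1003, 95% interval -0.11 to 0.36, edgeR adjusted p = 0.636).

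*Psmb9* stood at 11.0, 15.3 and 11.1 CPM in FXR+/+ and at 14.4, 11.0 and 10.098 CPM in FXR-/- libraries. The FXR-/- female 1 library lay above its FXR+/+ partner and both FXR-/- males below theirs. The log2 fold change was -0.08 (SE 0.190, 95% interval -0.53 to 0.36, edgeR adjusted p = 0.880). It was -0.31 without the FXR-/- female 1 library and turned to 0.12 without the FXR+/+ male 1 library.

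*Psmb10* stood at 20.2, 33.5 and 22.9 CPM in FXR+/+ and at 28.0, 40.4 and 27.4 CPM in FXR-/- libraries. Within each genotype the male 1 library was highest, and the FXR-/- library was the higher one in each pair. The log2 fold change was 0.33 (SE 0.187, 95% interval -0.10 to 0.77, edgeR adjusted p = 0.535), and the adjusted p was 0.171 with the replicate block. By exon counts summed per gene the log2 fold change turned to -0.021. The male 1 libraries also held the most acinar RNA of their genotypes, with the 10 acinar markers summing to 111300 CPM in FXR+/+ and 127140 CPM in FXR-/-. With acinar RNA as a further term, the log2 fold change of *Psmb10* was 0.13 (edgeR adjusted p = 0.837).

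Set against the constitutive partner within each library, no immunoproteasome subunit differed between genotypes by more than the spread of the FXR-/- libraries, in a design whose smallest p is 0.1. The ratio of *Psmb8* to *Psmb5*, per kb, was 0.235 ± 0.00814 in FXR+/+ and 0.223 ± 0.0547 in FXR-/- libraries (SD, n = 3; p = 0.7, two-sided exact permutation test). That of *Psmb9* to *Psmb6* was 0.103 ± 0.0176 and 0.0909 ± 0.0334 (p = 0.6, exact permutation), and that of *Psmb10* to *Psmb7* was 0.351 ± 0.0967 and 0.403 ± 0.0695 (p = 0.4, exact permutation). The permutation takes no account of the pairs, and the *Psmb10* ratio was higher in FXR-/- in all 3 of them (0.407 against 0.275, 0.470 against 0.460 and 0.331 against 0.318). For *Psmb8* and *Psmb9* the FXR-/- female 1 library had the highest ratio of the 6 (0.287 and 0.130) and the FXR-/- males had the lowest (0.195 and 0.189 for *Psmb8*, 0.0698 and 0.0736 for *Psmb9*).

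*Nlrc5* (chr8:94434356-94527272) encodes the transactivator that drives class I genes through the module described above. It had only 46 to 161 counts per library. It stood at 2.81, 4.16 and 4.20 CPM in FXR+/+ and at 6.52, 2.58 and 1.94 CPM in FXR-/- libraries. The FXR-/- female 1 library was the highest of the 6 and both FXR-/- males were the lowest, so that the FXR+/+ range lay inside the FXR-/- range. The log2 fold change was -0.17 (SE 0.419, 95% interval -1.15 to 0.82, edgeR adjusted p = 0.891), an interval from 0.452-fold to 1.76-fold. Without the FXR+/+ female 1 library the log2 fold change was -0.89, and without the FXR-/- male 2 library it turned to 0.18.

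**Figure D4:**
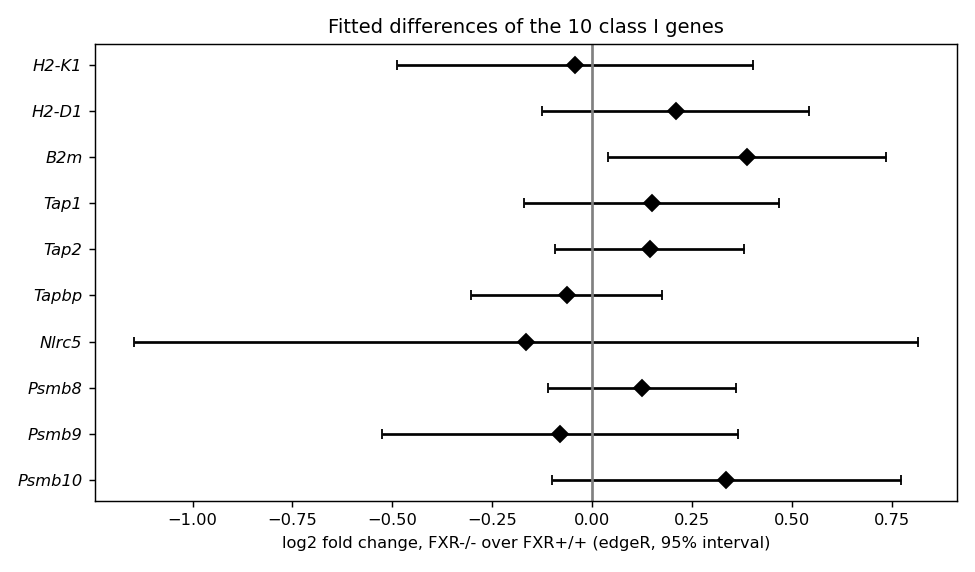
Fitted log2 fold change of each class I gene (horizontal axis, FXR-/- over FXR+/+, edgeR with a sex term) with its 95% interval, not adjusted for the number of genes. The intervals of all genes but *B2m* (0.04 to 0.74) include 0, and that of *Nlrc5* is the widest at -1.15 to 0.82.

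The same-numbered pairs differed in how far the class I genes lay apart. Within the female pair 9 of the 10 genes were higher in FXR-/-, with a median log2 ratio of 0.34. In the male 1 pair 8 were higher, with a median of 0.11, and in the male 2 pair 4 were higher, with a median of -0.07, while over all genes the medians were 0.00, 0.00 and 0.02. *H2-D1*, *B2m*, *Psmb8* and *Psmb10* were higher in FXR-/- in all 3 pairs, 4 of the 10 genes against 20.4% of all genes. With the replicate block, *B2m* and *Psmb10* had an unadjusted p under 0.05 and a higher level in FXR-/-, 2 of the 10 genes against 9.83% of all genes. Their edgeR adjusted p-values were 0.196 and 0.171.

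**Figure D5:**
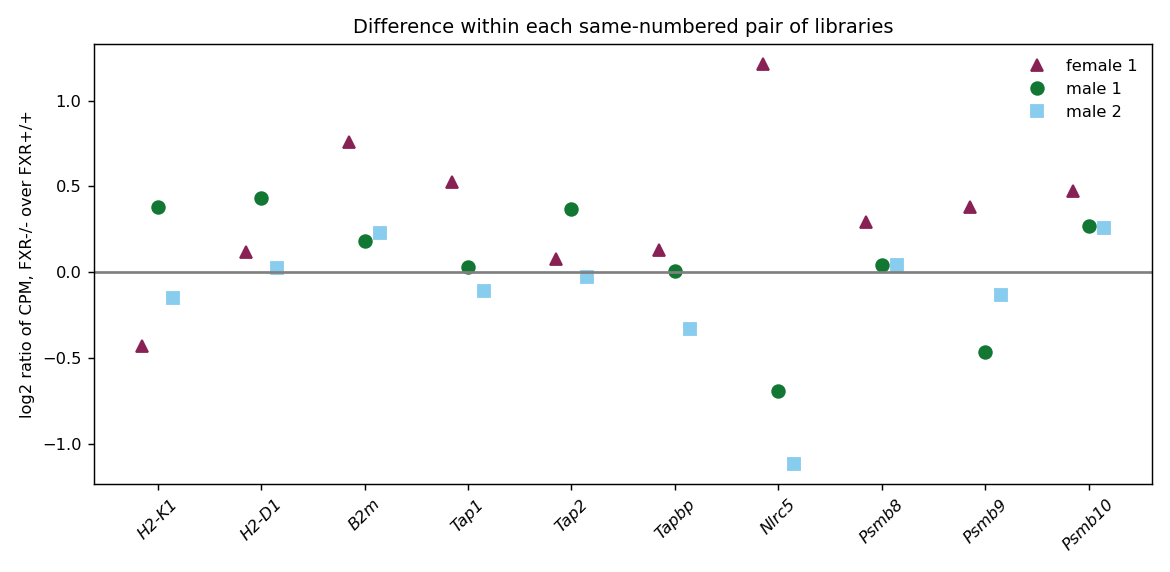
Log2 ratio of CPM (vertical axis), FXR-/- over FXR+/+, within the female 1, male 1 and male 2 pairs for each class I gene. *Nlrc5* lies furthest apart, with the female pair above 0 and both male pairs below it, and *H2-D1*, *B2m*, *Psmb8* and *Psmb10* lie above 0 in all 3 pairs.

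The interaction of sex and genotype was tested with edgeR over all genes, with 1 female library per genotype. No gene was called and 217 had an unadjusted p under 0.05 (1.48% of genes), among them 2 of the 10. For *Nlrc5* the difference in the female pair exceeded that in the males by 2.11 on the log2 scale (SE 0.442, unadjusted p = 0.00277, edgeR adjusted p = 1.00). *Tap1* followed at 0.56 (SE 0.223, unadjusted p = 0.0431, edgeR adjusted p = 1.00). The other 8 genes had unadjusted p-values of 0.0740 and above, and *H2-K1* had the largest difference in the other direction, at -0.58.

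The female FXR-/- library also stood out for the interferon-stimulated genes, which share regulators with the class I genes. All 37 of those tested were higher in FXR-/- in the female pair, with a median log2 ratio of 1.24, against 26 in the male 1 pair (median 0.15) and 12 in the male 2 pair (median -0.20). Their summed level was 722 CPM in the FXR-/- female and 410 to 467 CPM in the other 5 libraries. Over all libraries 6 of the 37 had an unadjusted p under 0.05, all higher in FXR-/-, against 6.18% of all genes. EdgeR called none of the 37 with a sex term and 4 with the replicate block, against 0.157% of all genes. The list was chosen with earlier results of these data known, so these shares are a description and no test of the list. *Oas2*, which senses double-stranded RNA, had a log2 fold change of 1.85 (SE 0.174, edgeR adjusted p = 0.129, 0.0175 with the block). *Cmpk2*, a mitochondrial nucleotide kinase, had one of 0.81 (SE 0.108, edgeR adjusted p = 0.197, 0.0441 with the block), and *Trim25*, the most abundant of the list, one of -0.02. The part of interferon in the class I values was not tested.

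The genes around the pathway were described from lists, and by edgeR with a sex term none of their members was called. Of the other class I heavy chains, 13 of 25 listed were tested, and 11 stood higher and 2 lower without FXR (median log2 fold change 0.14), none with an unadjusted p under 0.05. Within the pairs 10 of the 13 were higher in female 1 (median log2 ratio 0.27), 7 in male 1 (0.07) and 6 in male 2 (-0.06). The most abundant were *H2-Q2* (-0.17, SE 0.111) and *H2-T23*, which encodes the non-classical Qa-1 molecule (0.08, SE 0.106). *H2-M2* (1.06, SE 0.570) and *Fcgrt*, the neonatal Fc receptor (0.39, SE 0.215), had the lowest p-values. Of 20 peptide loading and trimming partners tested, 15 were higher and 5 lower (median 0.10). Within the pairs 8 were higher in female 1 (median log2 ratio -0.04), 16 in male 1 (0.32) and 10 in male 2 (0.03). Over all libraries 2 of the 20 had an unadjusted p under 0.05, a share close to the 10.3% of all genes. These were *Abcb9*, a lysosomal peptide transporter related to TAP (0.52, SE 0.129, unadjusted p = 0.00427, edgeR adjusted p = 0.336), and *Thop1*, a peptidase that destroys cytosolic peptides (0.23, SE 0.0934, unadjusted p = 0.0417). The chaperones *Hspa5* (0.20, SE 0.219) and *Pdia3* (0.23, SE 0.145) were the most abundant.

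Of 20 constitutive proteasome subunits and activators tested, 7 were higher and 13 lower (median -0.02). *Psme4*, a proteasome activator, was the 1 gene with an unadjusted p under 0.05 (-0.28, SE 0.117, unadjusted p = 0.0495), against 10.3% of all genes. *Psmb5* came next (0.22, SE 0.103), and *Psmb4* was among the most abundant (0.10, SE 0.0825). Of 18 transcription factors that act on class I promoters, 9 were higher and 9 lower (median -0.02). *Nfya*, a subunit of NF-Y, had the lowest p (-0.27, SE 0.0891, unadjusted p = 0.0173) and was the only 1 of the 18 under 0.05, against 10.3% of all genes, followed by *Rela* (0.23, SE 0.127), while *Nfkb1* (0.01, SE 0.0781) and *Creb1* (-0.08, SE 0.0833) were the most abundant. Of 10 interferon signalling genes tested, 6 were higher and 4 lower (median 0.09), none with an unadjusted p under 0.05. Among them were the kinase *Jak1* (-0.08, SE 0.0815) and the feedback inhibitors *Socs1* (0.43, SE 0.278), *Socs3* (0.58, SE 0.803) and *Usp18* (0.24, SE 0.141). Of 9 ligands and receptors that meet class I cells, 3 were tested, with *Cd274*, which encodes PD-L1, at -0.01 (SE 0.158), *Lilrb4a* at 0.43 (SE 0.535) and *Pirb* at 0.15 (SE 0.432).

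Cells other than endocrine cells also carry class I, and some of their markers were higher in FXR-/- libraries. The 8 endothelial markers summed to 383 to 482 CPM in FXR+/+ and 503 to 774 CPM in FXR-/- libraries, at 503, 774 and 551 CPM in FXR-/- female 1, male 1 and male 2. Male 1 was also the highest library for *H2-K1*, *H2-D1*, *Tap2* and *Psmb10*, but *B2m*, *Tap1*, *Nlrc5* and *Psmb8* were highest in female 1, which had the lowest endothelial sum of the FXR-/- group. All 8 were higher in FXR-/- and 6 had an unadjusted p under 0.05, against 6.18% of all genes that were higher with such a p. As above, the marker lists were chosen with earlier results known, and the shares beside them are a description. Of 10 macrophage markers, 8 were higher, 5 of them with an unadjusted p under 0.05 (again against 6.18%), and their sum was 114 to 156 CPM in FXR+/+ and 154 to 187 CPM in FXR-/- libraries. The 7 stellate and fibroblast markers were all higher, none with an unadjusted p under 0.05, and summed to 150 to 255 CPM and 224 to 295 CPM. Of the 6 pan-leukocyte markers 5 were lower, with ranges that overlapped. The 2 B cell markers tested were both lower (*Cd79a* at -0.58, SE 0.192, unadjusted p = 0.0175, edgeR adjusted p = 0.430), and of 3 T cell markers tested 2 were lower and 1 higher (median -0.78). Of 5 ductal markers tested, 4 were higher, 3 of them with an unadjusted p under 0.05 (again against 6.18%). Among these 3, *Spp1* had a log2 fold change of 1.08 (SE 0.233, edgeR adjusted p = 0.286). The most abundant ductal marker, *Krt7*, was lower (-0.21, SE 0.0971). It stood at 226, 210 and 200 CPM in FXR+/+ and at 167, 197 and 189 CPM in FXR-/- libraries. The ductal sums overlapped, at 226 to 273 CPM in FXR+/+ and 235 to 270 CPM in FXR-/- libraries. Of the 10 acinar markers 9 were higher (median log2 fold change 0.43), none with an unadjusted p under 0.05, and of the 9 beta cell markers 6 were higher and 3 lower. Of these 6, *Mafa* (0.57, SE 0.0880) and *Nkx6-1* (0.37, SE 0.140) had an unadjusted p under 0.05 (again against 6.18%). Apart from the fit with an acinar term, the part of these cells in the class I values was not tested.

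The exon table covered 85 exons of the 10 genes, of which 26 passed the filter. The last exon held most of the exon counts in 6 genes, with 77.3% in *H2-K1*, 90.8% in *H2-D1*, 81.7% in *B2m*, 81.5% in *Tapbp*, 72.1% in *Psmb8* and 62.4% in *Psmb9*. In *Tap1* it held 49.8%, in *Nlrc5* 44.7% and in *Tap2* 40.6%. *Psmb10* differed, with 14.8% in the last exon and 48.1% in the first. None of the 26 exons was called, against 0.0185% of 26998 exons tested with edgeR, and 1 had an unadjusted p under 0.05, against 7.79%. This was the last exon of *H2-D1* (exon 8, chr17:35266866-35267497), with a log2 fold change of 0.32 (SE 0.141, unadjusted p = 0.0474, edgeR adjusted p = 0.638). The last exon of *H2-K1*, numbered 1 in the file because it has the lowest position (chr17:33996012-33996503), had a log2 fold change of 0.04 (SE 0.189). The exon counts of a gene were 3.39% (*Psmb10*) to 40.9% (*Tapbp*) of its gene counts, and how reads were assigned to exons is not given in the sources used here.

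The genes whose profile over the 6 libraries was most like the mean profile of the 10 were *Cfap74*, *Wipf1*, *Foxn3*, *Syne3* and *Stard8*. Likeness was the root mean square distance between centred log2 CPM profiles, among 13527 genes with a mean of at least 1 CPM. The distances were 0.0252, 0.0486, 0.0562, 0.0593 and 0.0616 on the log2 scale. The 10 genes themselves lay 0.0824 (*Psmb8*) to 0.476 (*Nlrc5*) from their mean profile. The 5 genes were chosen for their small distance, so the values are a description.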

How the data were processed

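Islets from 6 mice or groups of mice, 3 per genotype, were measured by poly(A)-selected RNA-seq, and groups, sex and age came from the labels. The authors deposited raw counts per gene and counts per exon, without normalization. HISAT is named in the submitters' processing notes, and the version, counter, annotation and use of strand are not given in the sources used here. Exon positions matched GENCODE vM21 (GRCm38) for 86.7% of 139263 exons. The authors' own comparison (fold changes and p-values) was not used, and 31 genes carry no symbol. How reads shared by the heavy chain genes were counted is not known here and could affect *H2-K1* and *H2-D1*.

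Tests on the counts used edgeR 4.0.16 in R 4.3.3 (filterByExpr with a minimum count of 10, TMM, glmQLFit, glmQLFTest; terms sex and genotype; Benjamini-Hochberg over all genes, threshold 0.05), with DESeq2 1.42.0 as an alternative. The script was tested on simulated data. CPM values are counts scaled to 1e6 per library after TMM, and lengths are those of the principal transcripts of GENCODE vM21. Ratios were tested by exact permutation. The named genes of each list were the 2 with the lowest p and the 2 with the highest mean CPM. The genes and lists were chosen with earlier results of these data known, and the motifs after their sequences were seen. Same-numbered libraries deviated together from their group means (correlations 0.425, 0.438 and 0.382 over 13537 genes, other pairs at most 0.0309), so the number, taken from the labels, was also used as a block. No libraries of the same genotype were duplicates (chi-square per degree of freedom at least 38.4), and libraries of different genotypes were not compared in this way.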

Additional observations from a re-analysis of the deposited data

Results flagged for a closer look

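*Nlrc5* and *Psmb9* were set apart because the female pair moved one way and both male pairs the other, so their interaction terms restate that choice and are given as a description. For *Nlrc5* the ratio of FXR-/- to FXR+/+ CPM was 2.32 in the female pair and 0.619 and 0.461 in the male pairs, and the interaction of sex and genotype was 2.11 on the log2 scale (SE 0.442). For *Psmb9* the ratios were 1.30, 0.724 and 0.911, and the interaction was 0.70 (SE 0.344). Over all genes, edgeR called no interaction, and with 1 female library per genotype a difference between the sexes and a difference of the female FXR-/- library cannot be told apart.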

How the results depend on the processing

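None of the 10 genes was called under any of the alternatives run (model terms, males alone, DESeq2, legacy dispersions, other scalings and filters, exon counts, without the 20 most abundant genes, an acinar term, and each library left out), with adjusted p-values from 0.171 upward. Over all genes, where the sex model called 0, the replicate block called 23, DESeq2 158, exon counts summed per gene 4 and the acinar term 8, and leaving out a library gave 0 each time. The pairing by replicate number changed no call among the 10. Their median log2 fold change was 0.03 to 0.20 with a library left out (lowest without FXR-/- male 1), 0.09 in males alone and 0.04 with library size alone, where the median of all genes was -0.09. The number of the 10 higher in FXR-/- (an alternative added after the data were seen) was 6 in males alone and 6 to 10 with a library left out, 10 without FXR-/- male 2. The acinar term left every sign as it was and moved *Psmb10* to 0.13, *H2-D1* to 0.09, *H2-K1* to -0.19, *Psmb9* to -0.19, *Nlrc5* to -0.06 and *Tapbp* to -0.03. Reversed signs, all far from the threshold, were *H2-K1* at 0.15 in males alone and 0.080 by exon counts, *Tap1* at -0.041 in males alone, and by exon counts *Psmb9* at 0.031 and *Psmb10* at -0.021. Exon counts also moved *Psmb8* from 0.12 to 0.46, *Tap2* from 0.14 to 0.016, *Nlrc5* from -0.17 to -0.064 and *B2m* from 0.39 to 0.26, and the median of the 10 to 0.055. With a library left out the log2 fold changes were -0.30 to 0.15 for *H2-K1*, 0.02 to 0.34 for *H2-D1*, 0.20 to 0.53 for *B2m*, -0.040 to 0.23 for *Tap1*, 0.04 to 0.22 for *Tap2*, -0.16 to 0.014 for *Tapbp*, -0.89 to 0.18 for *Nlrc5*, 0.04 to 0.17 for *Psmb8*, -0.31 to 0.12 for *Psmb9* and 0.18 to 0.52 for *Psmb10*. The log2 ratio of *Psmb8* to *Psmb5* turned to 0.16 by exon counts and was -0.29 to 0.0088 with a library left out. That of *Tap1* to *Tap2* was 0.18 by exon counts and -0.15 to 0.14 with a library left out. Those of *H2-D1* to *H2-K1* (0.13 to 0.35), *H2-K1* to *B2m* (-0.75 to -0.04), *Psmb9* to *Psmb6* (-0.51 to -0.06) and *Psmb10* to *Psmb7* (0.06 to 0.43) kept their sign. The cause was not tested. Depth limits *Nlrc5* most, at 46 to 161 counts per library.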
